A study of Sus scrofa domesticus with 6 samples.

Results

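The keratin, claudin and desmosome genes build the cytoskeleton and the cell junctions of epithelia, and here they were followed in the mandibular condyle, the end of the lower jaw that faces the temporomandibular joint. The members are the rows of the deposited gene table whose gene name is a numbered keratin or claudin, a desmoglein, a desmocollin, DSP, JUP, a plakophilin, EPCAM, TP63 or a GRHL factor. Where a name had several rows, the row with the most counts was taken. This gave 68 of 25322 rows: 19 type I keratins, 15 type II keratins, 19 claudins, 6 desmosomal cadherins, 4 desmosomal plaque genes and 5 genes of epithelial regulators. The rule uses names only, but it was set with earlier results of these data known.

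Keratins are intermediate filament proteins that assemble as pairs of a type I and a type II chain, and particular pairs mark particular epithelia. KRT8 and KRT18 are the pair of simple epithelia, KRT5 and KRT14 or KRT15 that of the basal layer of stratified epithelia, and KRT4 and KRT13 that of the suprabasal layers of the oral and esophageal lining. Claudins are membrane proteins that set the permeability of tight junctions, and each barrier tissue has its own mixture. Desmosomes join keratin filaments of neighbouring cells through cadherins (DSG and DSC) that are held by the plaque proteins plakoglobin (JUP), the plakophilins (PKP) and desmoplakin (DSP). Cartilage and bone are connective tissues, and most of these genes are not known as genes of chondrocytes or osteoblasts.

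Both groups are total RNA from the condyle of miniature pig embryos, at day 45 and at day 85 of age, with 3 libraries per age. The labels name no agent and no genetic change, and their treatment field gives only the osteogenesis of cartilage that both ages share. The labels call the tissue cartilage in the course of ossification and its cells chondrocytes and osteocytes, and they give the subspecies as the domestic pig although the design text names miniature pigs. The libraries were made from whole ground tissue after removal of ribosomal RNA, so in them fewer cells of a type and less RNA per cell cannot be told apart. The labels do not say that the libraries come from separate animals, and p-values therefore measure the spread between these 6 libraries only. Levels of a gene between libraries are given as TMM-normalised counts scaled to library size (CPM), levels of different genes are compared as deposited FPKM, which is also scaled to gene length, and errors are SD with n = 3. Fold changes are day 85 against day 45, and a gene counts as risen or fallen where the adjusted p of edgeR's quasi-likelihood test (Benjamini-Hochberg over all genes tested) is under 0.05.

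Total counts per library ran from 12546729 to 16559616, so a count of 0 allows up to 3 counts, or 0.181 to 0.239 CPM before TMM, as far as counting error goes. Day 85 replicate 2 stood apart from the other day 85 libraries: its Spearman correlations with them over genes were 0.931 and 0.938, against 0.980 between the other pair. Its summed CPM over a list of skeletal muscle genes was 3457, against 52767 and 43293 in day 85 replicates 1 and 3 and 5440 to 12577 at day 45. Its summed CPM over a list of Schwann cell and myelin genes was 3182, against 192 to 381 in the other 5 libraries. The labelled cartilage showed its markers at both ages, with summed CPM of 9 chondrocyte genes of 13148 to 16154 at day 45 and 1376 to 5209 at day 85. Of the 9 genes 3 fell, against 2.66% of all genes tested. The member calls are given with and without day 85 replicate 2.

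Among the members, KRT13 and KRT15, keratins of stratified epithelium, fell by day 85. The endothelial claudin CLDN5, the desmosomal cadherin DSC2 and plakoglobin (JUP) rose. Of the 68 members, 25 passed the count filter and were tested, and 5 of these (20%) were called, against a background of 6.56% of the 15022 genes tested (986 genes). The 3 that rose compare with 3.9% of all genes (586) and the 2 that fell with 2.66% (400). That background split depends on the scaling: with library totals alone, 437 genes rose and 598 fell, while the member calls were the same 5. At an unadjusted p under 0.05, 6 members were higher and 3 lower, together 36% of those tested, against 29.1% of all genes. The median log2 fold change was 0.49 over the 25 tested members and 0.02 over all genes tested, with 16 members above 0 and 9 below. These counts are a description, since a gene can pass the count filter through 1 age alone. Among the tested members KRT15 did so, with no day 85 library above the filter level. KRT13, with 4, 12 and 0 counts at day 85, and KRT5, with 9, 2 and 0, also needed their day 45 libraries to pass. Both called falls are thus in genes that the day 45 libraries admitted.

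How many members pass depended on the set of libraries and on the tool. Without day 85 replicate 2, 8 of 27 tested members were called, against 22.3% of all genes in that fit: the same 5 genes, TP63 as a rise, and KRT8 and KRT18 as falls. All 4 falls of that fit were in genes that passed its filter through the day 45 libraries alone. Without day 45 replicate 1, 2 or 3, or without day 85 replicate 1, edgeR called 0 members, and 8 or 9 had an unadjusted p under 0.05. Without day 85 replicate 3 it called KRT13 alone. Over the whole table these fits called 4, 0, 20, 16 and 118 genes, so the calls of the other genes named here are also calls of all 6 libraries together. DESeq2 on all 6 libraries called 9 of the 33 members to which it gave an adjusted p (27.3%), against 23.3% of all genes, and these were the same 5 with CLDN11 and CLDN1 as rises and KRT5 and KRT14 as falls. All values of the libraries at the younger age lay above or below all those at the older age in 12 of the 25 tested members (48.0%), against 35.0% of all genes tested, in 7 with day 85 higher and in 5 with day 45 higher.

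**Figure D1:**
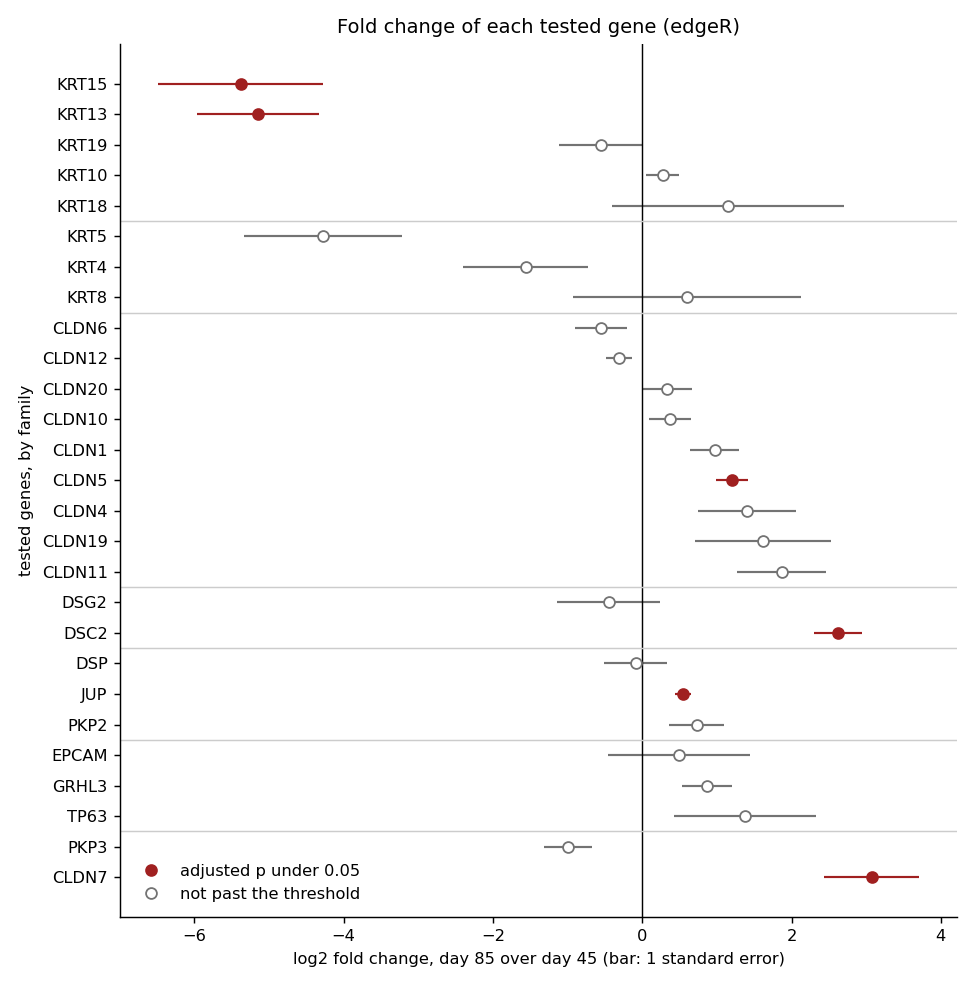
Fold change of the 25 tested members, sorted by family, and of CLDN7 and PKP3, which were named from gene IDs only and are not members. The horizontal axis gives the log2 fold change of day 85 over day 45 from edgeR, bars are 1 standard error, and filled red points passed the threshold. The called members are KRT13 and KRT15 on the left and CLDN5, DSC2 and JUP on the right. CLDN7 is also called, on the right. KRT8 and KRT18 have the widest bars.

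The largest differences were falls of keratins of stratified epithelium. KRT13, the type I keratin of the suprabasal oral lining, had 323, 166 and 129 counts in day 45 replicates 1, 2 and 3, against 4, 12 and 0 in those of day 85. Every day 45 library was far above every day 85 library. Its level was 13.4 ± 5.80 CPM at day 45 and 0.370 ± 0.403 CPM at day 85, a 35.4-fold fall (log2 fold change -5.14, SE 0.82, adjusted p = 0.0287 in edgeR). In the deposited table KRT13 spans positions 21475570 to 21479809 of chromosome 12, of a build not given in the sources used. Without day 85 replicate 2 the log2 fold change was -6.46 (edgeR adjusted p = 0.00581). It was not called without day 45 replicate 1 (-4.77, edgeR adjusted p = 0.124), day 45 replicate 2 (0.106), day 45 replicate 3 (0.0639) or day 85 replicate 1 (0.0944). Leaving out day 85 replicate 3 gave -4.55 with an edgeR adjusted p of 0.0485.

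KRT15, a type I keratin of basal cells and of epithelial stem cells, is the neighbouring member on chromosome 12, at 21489162 to 21494348. Its counts were 139, 42 and 16 at day 45 against 2, 0 and 2 at day 85. The ages did not overlap, but the day 45 libraries themselves spread widely, with replicate 1 far above the other two. The mean level was 4.20 ± 3.87 CPM at day 45 and 0.0955 ± 0.0835 CPM at day 85, a 41.5-fold fall (log2 fold change -5.38, SE 1.11, adjusted p = 0.0433 in edgeR). Without day 85 replicate 2 the adjusted p was 0.0402 in edgeR. Leaving out any of the other 5 libraries, each in turn, raised it to between 0.0533 and 0.131, the highest without day 45 replicate 1 (log2 fold change -4.33). With limma-voom the adjusted p of KRT15 was 0.0768.

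KRT5, the type II keratin of the basal layer and usual partner of KRT14 and KRT15, had 166, 32 and 48 counts at day 45 and 9, 2 and 0 at day 85. All day 45 libraries were above all day 85 libraries, with replicate 1 again the highest. The mean level was 5.2 ± 4.32 CPM and 0.276 ± 0.369 CPM, and the log2 fold change of -4.28 (SE 1.05) had an adjusted p of 0.0626 in edgeR and 0.0114 in DESeq2. It was -6.16 without day 85 replicate 1 and -3.35 without day 45 replicate 1, with edgeR adjusted p of 0.0878 and 0.180. KRT14, the other basal type I chain, had 42, 8 and 8 counts at day 45 and 4, 0 and 0 at day 85. It failed the edgeR count filter and was called in DESeq2 (log2 fold change -3.66, adjusted p = 0.0133). KRT4, the type II partner of KRT13, had 195, 40 and 93 counts at day 45 and 46, 5 and 49 at day 85. Here the ages overlapped, since day 45 replicate 2 was below day 85 replicates 1 and 3, and KRT4 was not called (log2 fold change -1.56, SE 0.84, edgeR adjusted p = 0.268).

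The 5 stratified keratins KRT4, KRT5, KRT13, KRT14 and KRT15 together had 865, 288 and 294 counts at the younger age against 65, 19 and 51 at the older. Day 45 replicate 1 held 54.7% of all these counts. By FPKM, KRT13 was 12, 7.10 and 5.56 at day 45 and its partner KRT4 5.47, 1.30 and 3.04. KRT13 thus stood above KRT4 in each day 45 library, by ratios of 2.19, 5.48 and 1.83. At day 85 the FPKM ratio of KRT13 to KRT4 was 0.115 in replicate 1, 3.17 in replicate 2 and 0 in replicate 3, with 46, 5 and 49 counts of KRT4 behind it. KRT14 to KRT5 stood at FPKM ratios of 0.395, 0.391 and 0.261 at day 45, so the type II chain was the higher of that pair in each day 45 library.

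**Figure D2:**
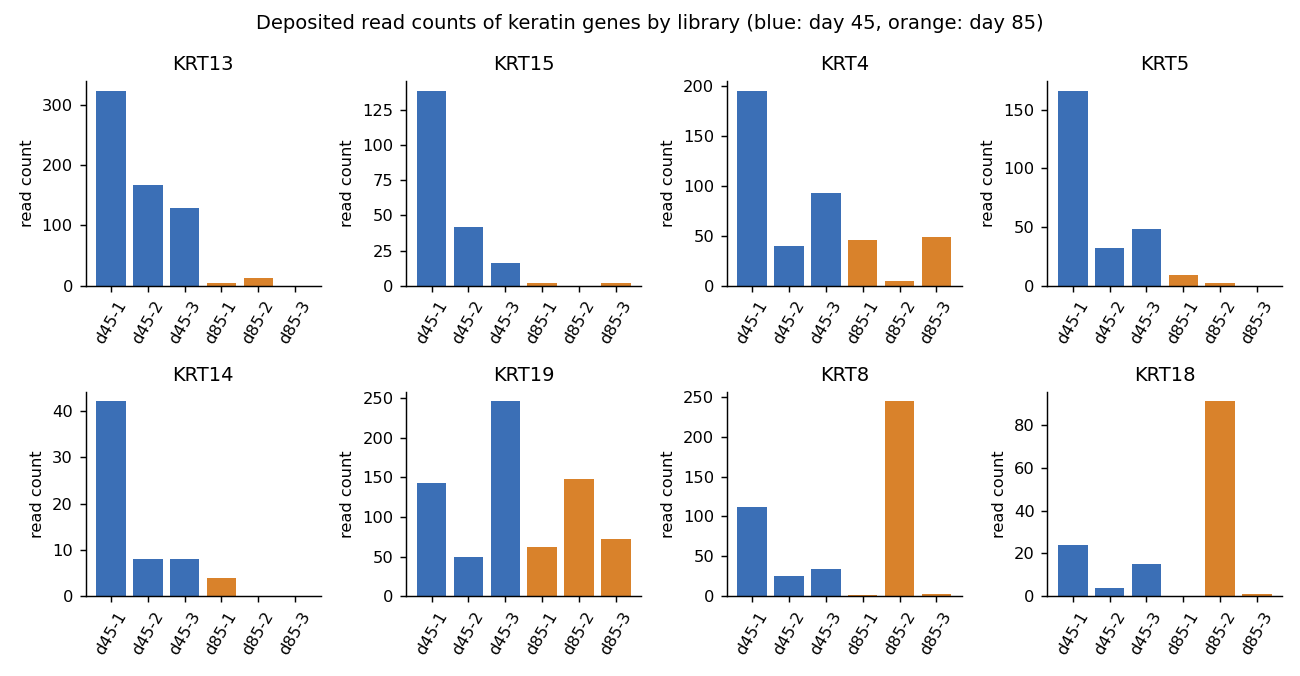
Deposited read counts of keratin genes in each library, labelled by day and replicate (blue for day 45, orange for day 85), each panel with its own vertical axis from 0. KRT13, KRT15, KRT5 and KRT14 are highest in day 45 replicate 1 and near 0 at day 85, while KRT8 and KRT18 peak in day 85 replicate 2.

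Epithelial genes outside the 3 families were looked at beside KRT13 and KRT15. Of 22 matched genes of a list of epithelial regulators and surface proteins, 10 were tested, none rose and 1 fell in edgeR. Over all genes tested 3.9% rose and 2.66% fell. The median of the list's log2 fold changes was 0.04 beside 0.02 over all genes, and its summed level was 26.5 to 37.8 CPM at day 45 and 25.0 to 36.5 CPM at day 85. LAD1, a basement membrane protein and among the most abundant of the list, had a log2 fold change of 0.35 (edgeR adjusted p = 0.449). E-cadherin (CDH1), the defining adhesion protein of epithelia, had 5, 0 and 1 counts at day 45 and 2, 41 and 6 at day 85, and was not tested. Its row lies on a sequence outside the numbered chromosomes, and whether it holds the whole gene is not given. Of the 12 untested genes of the list, CDH1 included, 4 had more counts over the day 85 libraries and 8 over the day 45 libraries. Among the latter were the epithelial splicing factor ESRP1, with 8, 2 and 3 counts at day 45 and none at day 85, and the vesicle protein RAB25, with 20, 5 and 11 counts and 3 in each day 85 library.

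Genes of the differentiated upper layers, the cornified envelope list, had 13 matched and 7 tested genes, and none was called in edgeR. Their median log2 fold change was 0.05, and their summed level was 42.7 to 68.0 CPM at day 45 and 29.2 to 101 CPM at day 85. MAL, a membrane protein of the stratified mucosa that is also made in myelin, had 30.6, 19.9 and 15.3 CPM at day 45 against 2.63, 59.7 and 2.70 CPM at day 85. Its high day 85 library is the one with the high Schwann cell and myelin sum, to which MAL itself contributes. S100A14, a calcium-binding protein of squamous epithelia, had a log2 fold change of -0.17 (edgeR adjusted p = 0.788).

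Genes of salivary gland, a tissue near the joint, were looked at beside the keratins, with 13 matched, 5 tested and 3 at no count in any library. The list's summed level was 15.3 to 27.2 CPM at day 45 and 16.5 to 22.7 CPM at day 85. Beside 2.66% of all genes that fell, 1 gene of the list was called, as a fall. This was BPIFA1, a secreted protein of airway and oral surfaces, with 73, 13 and 16 counts at day 45 and 1, 0 and 0 at day 85 (edgeR adjusted p = 0.0386). It passed the count filter through its day 45 libraries alone. Day 45 replicate 1 was the highest library for BPIFA1, as it was for KRT13, KRT15, KRT5 and KRT14. Whether epithelium outside the condyle had a part in the keratin counts was not tested.

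The pair of simple epithelia depended on 1 library. KRT8, the type II chain, had 112, 26 and 34 counts at day 45 and 2, 244 and 3 at day 85. KRT18, its type I partner, had 24, 4 and 15 counts at day 45 and 0, 91 and 1 at day 85. In both genes day 85 replicate 2 was the highest of the 6 libraries and the other day 85 libraries were the lowest. With all libraries the log2 fold changes were 0.60 (SE 1.53, edgeR adjusted p = 0.821) for KRT8 and 1.15 (SE 1.56, edgeR adjusted p = 0.656) for KRT18. Without day 85 replicate 2 they were -4.31 (SE 0.89, edgeR adjusted p = 0.0197) and -4.41 (edgeR adjusted p = 0.0388), and both genes were called as falls. In that fit both passed the count filter through the day 45 libraries alone. Day 85 replicate 2 is also the library with the high Schwann cell sum and the low muscle sum, and the part of either difference in KRT8 and KRT18 was not tested.

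By FPKM, KRT18 stood below KRT8 in every library with counts of it, at ratios of 0.260, 0.186 and 0.535 at day 45 and 0.452 and 0.404 in day 85 replicates 2 and 3. KRT19, a type I keratin of simple and ductal epithelia, did not follow the pair. Its counts were 143, 50 and 246 at day 45 against 62, 148 and 72 at day 85, with overlapping ages and no call (log2 fold change -0.55, SE 0.57, edgeR adjusted p = 0.550). Its sign rested on day 45 replicate 3, without which the log2 fold change was 0.06. KRT10, a type I keratin of the suprabasal epidermis, was the most even of the tested keratins, with 81, 61 and 55 counts at day 45 and 75, 66 and 83 at day 85 (log2 fold change 0.27, SE 0.23, edgeR adjusted p = 0.455). KRT1, the type II partner of KRT10, had 16 counts in day 45 replicate 1, 1 in replicate 2 and 0 in the other 4 libraries.

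Most other keratins were at or near 0 counts. In all, 14 of 19 type I and 12 of 15 type II keratins were not tested, and KRT75, KRT77 and KRT84 had no count in any library. Apart from KRT14, no untested keratin had more than 19 counts in a library. A group of type I genes of the inner root sheath of hair and their neighbours on chromosome 12 had low counts in every library at both ages. KRT24 had 9, 7 and 5 counts at day 45 and 16, 7 and 19 at day 85. KRT27 of the inner root sheath had 7, 5 and 8 counts and 16, 6 and 16 counts, and KRT26 had 4, 2 and 2 and 8, 6 and 13. KRT36, a hair keratin, had 3, 1 and 8 counts at day 45 and 0 in each day 85 library. Keratin genes resemble each other in sequence, and how the authors' counting assigned reads that fit several of them is not given, so counts this low may be shared between neighbours. KRT12 lies wholly inside the KRT20 row, and the counts of that pair, at most 5 in a library, are uncertain.

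**Figure D3:**
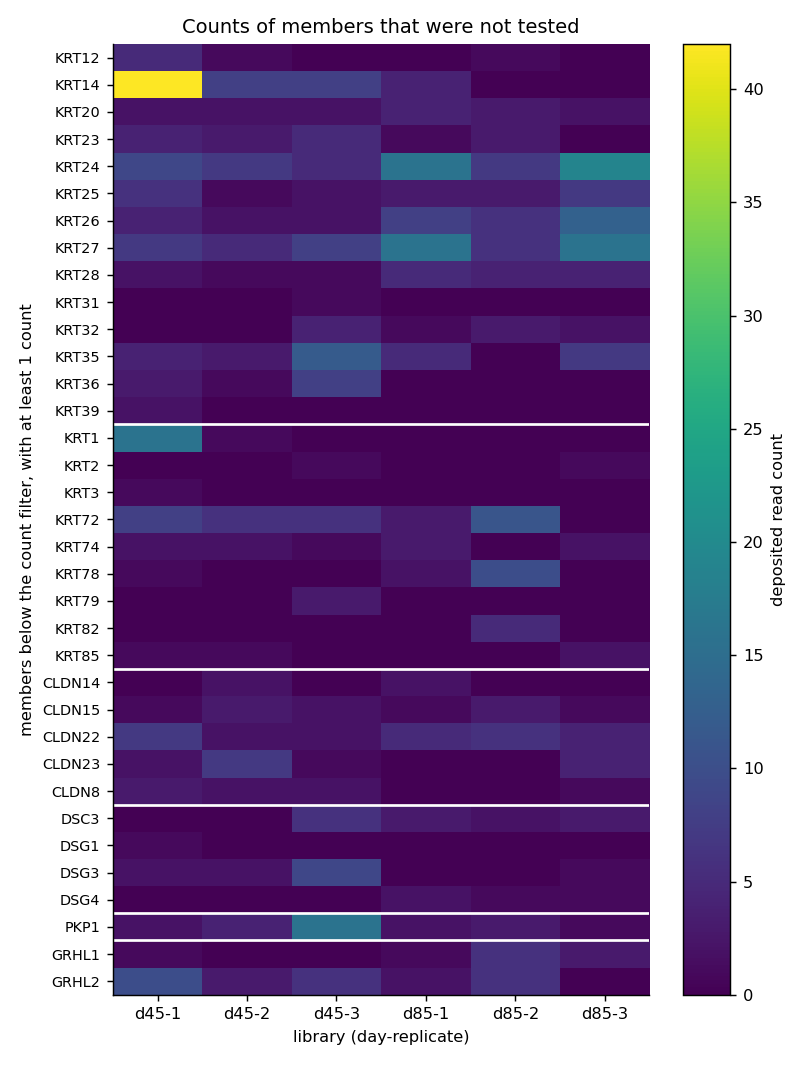
Deposited read counts of the 35 members with at least 1 count that failed the count filter, by library (day and replicate). Colour gives the count from 0 upward, with the highest value of 42 for KRT14 in day 45 replicate 1.

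Of the claudins that the deposited table names, the endothelial CLDN5 rose and no other passed the edgeR test. CLDN7, named by gene ID only, also rose and is not in the shares that follow. Of 19 claudins in the table by name 9 were tested, so that 11.1% were called, against 6.56% of all genes, and 3 (33.3%, all higher) had an unadjusted p under 0.05, against 29.1%. DESeq2 called 3 of the 10 claudins with an adjusted p (30%, all higher), against 23.3% of all genes. These shares are close to those of all genes. The ages did not overlap in 5 of the 9 (55.6%), against 35.0% of all genes tested, in 3 with day 85 higher and in 2 with day 45 higher. The log2 fold change was above 0 in 7 tested claudins and below 0 in CLDN12 and CLDN6, with a median of 0.97 beside 0.02 over all genes tested. CLDN16, CLDN17, CLDN18, CLDN25 and CLDN34 had no count in any library, and the other 5 untested claudins had at most 7 counts in a library.

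CLDN5 is the claudin of the tight junctions between endothelial cells. It had 700, 443 and 781 counts at day 45 and 1487, 1389 and 1235 at day 85, so that the lowest day 85 library was well above the highest day 45 library. The level rose from 42.0 ± 9.60 CPM to 96.3 ± 17.1 CPM, a 2.29-fold rise (log2 fold change 1.2, SE 0.21, edgeR adjusted p = 0.0317). With means of 65.0 FPKM at day 45 and 145 FPKM at day 85, it had the highest length-scaled level of all tested members at both ages. Its row is short, 657 bases on chromosome 14 (54778678 to 54779334). With day 85 replicate 2 left out, the log2 fold change was 1.22 (edgeR adjusted p = 0.0159). Leaving out any of the other 5 libraries in turn kept it between 1.03 and 1.36, with adjusted p from 0.0616 to 0.147 (edgeR), highest without day 45 replicate 1.

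Genes of endothelial cells moved beside CLDN5. All 15 matched endothelial genes were tested, 9 rose and none fell in edgeR, against 3.9% of all genes that rose and 2.66% that fell. Their median log2 fold change was 1.40, and their summed level was 671 to 907 CPM at day 45 and 1556 to 2274 CPM at day 85. The largest of these rises were in VWF, the clotting factor stored by endothelium, from 15.8 to 101 CPM on average (log2 fold change 2.68, edgeR adjusted p = 0.0160), MMRN2 (1.94), PECAM1 (1.66) and FLT1 (1.65). CLDN5 amounted to 5.61%, 4.76% and 5.64% of the list's summed CPM at day 45 and to 5.06%, 5.95% and 4.81% of it at day 85. The ages overlapped in that share. ESAM, an adhesion protein of endothelial tight junctions, was called among both the endothelial and the tight junction genes, with 11.5, 9.38 and 14 CPM at day 45 against 41.2, 31.6 and 31.4 CPM by day 85 (log2 fold change 1.58, SE 0.20, edgeR adjusted p = 0.0186).

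CLDN11, a claudin of myelin and of the testis barrier, had 93, 21 and 80 counts at day 45 and 146, 382 and 134 at day 85. Every day 85 library was above every day 45 library, with replicate 2 the highest. The means were 4.15 ± 2.29 and 15.2 ± 8.98 CPM, and the log2 fold change of 1.87 (SE 0.60) had an adjusted p of 0.107 in edgeR and 0.00280 in DESeq2. With day 85 replicate 2 left out, it was 1.26 (edgeR adjusted p = 0.126). CLDN1, the main sealing claudin of the epidermis, had 92, 41 and 81 counts and 85, 177 and 135 counts, and its CPM values of 2.96 to 5.63 at day 45 did not overlap with those of 6.57 to 11.8 at day 85. Its log2 fold change of 0.97 (SE 0.33) had an adjusted p of 0.113 in edgeR and 0.0196 in DESeq2.

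CLDN19, known from the kidney and from Schwann cells of peripheral nerve, was high in a single library. It had 95, 167 and 54 counts at day 45 and 98, 759 and 107 at day 85, and 50.6 CPM in day 85 replicate 2 against 3.53 to 12 CPM in the other 5 libraries. The log2 fold change was 1.61 (SE 0.91, edgeR adjusted p = 0.289) with that library and 0.05 (edgeR adjusted p = 0.954) without it. The Schwann cell and myelin list, of which 13 genes were tested and none was called in edgeR, had its highest sum in the same library. S100B, a calcium-binding protein of Schwann cells and also of cartilage, had 228 CPM in that library and 82.2 to 123 CPM in the others. The part of nerve tissue in the CLDN19 level was not tested.

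The remaining tested claudins among the members had low or even levels and no call. CLDN10, a claudin of ion-transporting epithelia, had 129, 74 and 88 counts at day 45 and 126, 85 and 140 at day 85 (log2 fold change 0.37, SE 0.28, edgeR adjusted p = 0.404). CLDN12 had 100, 96 and 96 counts and 66, 80 and 78 counts. Its levels of 6.44 ± 0.425 CPM at day 45 and 5.19 ± 0.123 CPM at day 85 did not overlap, with day 45 the higher (log2 fold change -0.31, SE 0.17, edgeR adjusted p = 0.280). CLDN4 had 10, 14 and 8 counts and 18, 54 and 10 counts (log2 fold change 1.40, SE 0.66, edgeR adjusted p = 0.210, and 0.51 without day 85 replicate 2). CLDN6, an embryonic claudin, had 14 to 16 counts at day 45 and 6 to 13 at day 85, and CLDN20 had 18 to 28 and 22 to 36. The rows of CLDN6 and CLDN20 lie inside those of TNFRSF12A and TFB1M, which had 189 to 348 and 348 to 462 counts per library, and since the strand setting of the counting is not given, their counts are uncertain.

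CLDN7, a claudin of simple and glandular epithelia, has no gene name in the deposited table and is not among the 68 members. A table of gene IDs and symbols gave its name, and the same fit its values. It had 10, 10 and 5 counts at day 45 and 94, 23 and 81 at day 85. Each day 85 library was above each day 45 library, with replicate 2 the lowest of its age. The mean rose from 0.554 ± 0.204 CPM to 4.71 ± 2.92 CPM, an 8.41-fold rise (log2 fold change 3.07, SE 0.64, edgeR adjusted p = 0.0431). KRT13 and KRT15 thus fell and CLDN7 rose between the same libraries, although all 3 are epithelial markers. Each was admitted by the age where it was high: CLDN7 needed its day 85 libraries to pass the count filter, and KRT13 and KRT15 needed those of day 45. With day 85 replicate 2 left out, the log2 fold change of CLDN7 was 3.49 (edgeR adjusted p = 0.00258). Leaving out any other library gave adjusted p from 0.106 to 0.166 in edgeR, highest without day 45 replicate 1, and limma-voom gave 0.0916.

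Partners of the claudins in the tight junction had 20 matched and 17 tested genes, and a median log2 fold change of 0.37. ESAM alone was called, as a rise, beside 3.9% of all genes that rose. TJP1, the scaffold protein ZO-1, had 137, 130 and 130 CPM at day 45 against 171, 175 and 156 CPM at day 85, without overlap (log2 fold change 0.34, SE 0.11, edgeR adjusted p = 0.0995). MPDZ, another scaffold, had a log2 fold change of 0.05 (edgeR adjusted p = 0.920). Occludin (OCLN), the second membrane protein family of tight junctions, had 15, 5 and 21 counts at day 45 and 114, 39 and 79 at day 85. The ages did not overlap, and the log2 fold change of 2.62 (SE 0.60) had an adjusted p of 0.0513 in edgeR, just outside the threshold. As in CLDN7, day 85 replicate 2 was the lowest library of its age for OCLN. In the other direction, CXADR, a junctional adhesion protein, had 304, 133 and 398 counts at day 45 and 95, 81 and 103 at day 85, without overlap in CPM. Its log2 fold change of -1.47 (SE 0.36) had an adjusted p of 0.0597 in edgeR, and DESeq2 called both CXADR (3.91e-04) and OCLN (8.37e-05). ILDR1, a protein of tricellular junctions, had 11, 6 and 12 counts at day 45 and 0, 1 and 0 at day 85, failed the edgeR count filter and had an adjusted p of 0.00494 in DESeq2.

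**Figure D4:**
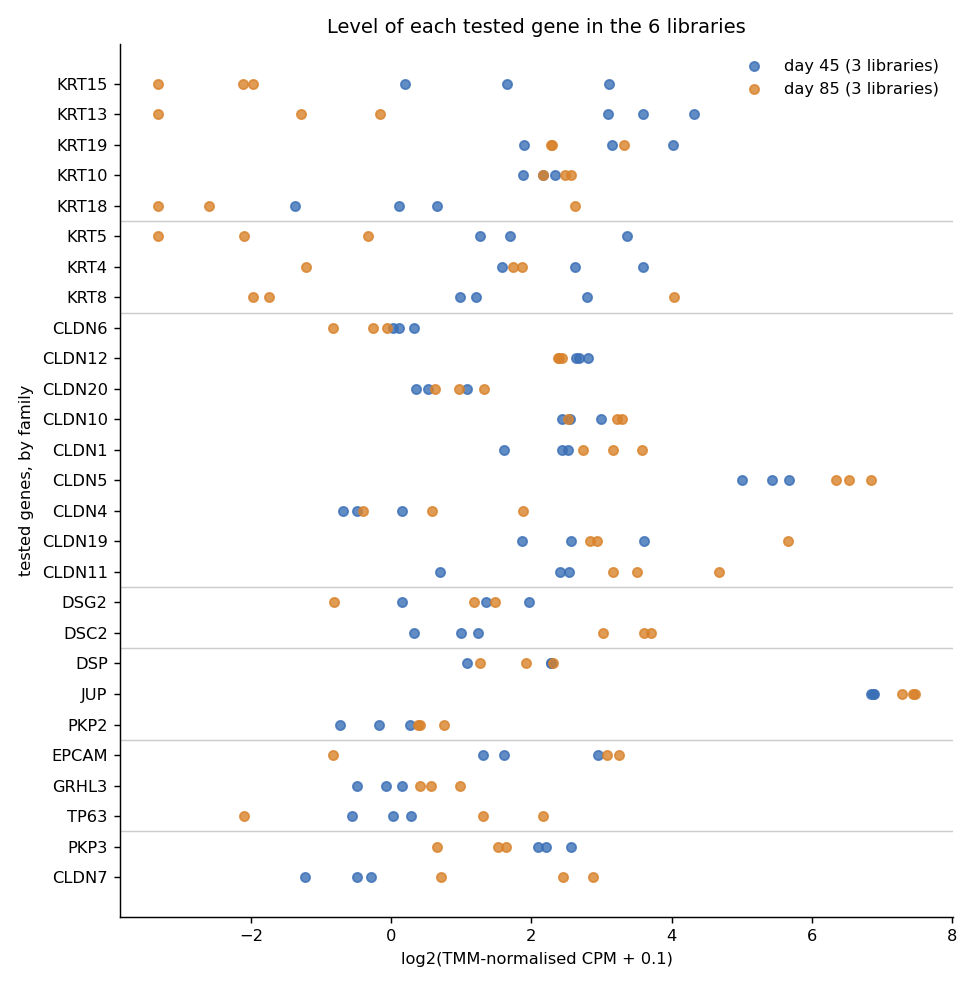
Level of each tested member, and of CLDN7 and PKP3 named by ID only, in the 6 libraries, sorted by family. The axis gives log2 of TMM-normalised CPM plus a small constant (blue for day 45, orange for day 85). CLDN5 and JUP stand highest, KRT13, KRT15 and KRT5 have separate ages with day 45 on the right, and KRT8, KRT18, TP63 and EPCAM have day 85 points far apart from each other.

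Of the desmosomal cadherins, DSC2 was the member that changed. DSC2, the most widely expressed desmocollin, had 37, 16 and 29 counts at day 45 and 104, 181 and 197 at day 85. Every day 85 library was well above every day 45 library. The level rose from 1.77 ± 0.566 CPM to 11 ± 2.63 CPM, a 6.18-fold rise (log2 fold change 2.63, SE 0.32, edgeR adjusted p = 0.0181). With day 85 replicate 2 left out, it was 2.56 (edgeR adjusted p = 0.00515). Leaving out any other library gave log2 fold changes from 2.40 to 2.82 and adjusted p from 0.0502 to 0.109 in edgeR, highest without day 45 replicate 1.

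DSG2, the widely expressed desmoglein that pairs with DSC2 in many tissues, had 40, 14 and 58 counts at day 45 and 28, 7 and 41 at day 85. The ages overlapped (log2 fold change -0.45, SE 0.69, edgeR adjusted p = 0.695), and the log2 fold change was 0.022 without day 45 replicate 3 and 0.0022 without day 85 replicate 2. By FPKM, DSG2 and DSC2 stood at 0.436 ± 0.272 and 0.408 ± 0.136 at day 45, within their spread, and at 0.312 ± 0.208 and 2.45 ± 0.529 at day 85. The cadherins of stratified epithelium were at a few counts. DSG3, the desmoglein of mucosa and basal epidermis, had 2, 2 and 9 counts at day 45 and 0, 0 and 1 at day 85, and DSC3 had 0, 0 and 6 and 3, 2 and 3. DSG1, of the upper epidermis, had 1 count over all libraries, in day 45 replicate 1, and DSG4 had 2, 1 and 1 at day 85 only.

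Among the plaque proteins, plakoglobin rose and desmoplakin did not pass the test. JUP, which encodes plakoglobin and serves both desmosomes and cadherin junctions of other cells, had 1926, 1589 and 1781 counts at day 45 and 2251, 2663 and 2372 at day 85. The libraries of an age lay close together and the ages did not overlap. The level rose from 116 ± 1.66 CPM to 169 ± 11.3 CPM, a 1.46-fold rise (log2 fold change 0.54, SE 0.11, edgeR adjusted p = 0.0391). JUP lies on chromosome 12 at 21145390 to 21174257. With day 85 replicate 2 left out, the log2 fold change was 0.51 (edgeR adjusted p = 0.0207), and leaving out any other library kept it between 0.50 and 0.60 with adjusted p from 0.0849 to 0.165 (edgeR), highest without day 45 replicate 1.

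DSP, desmoplakin, which ties the plaque to keratin and is a constant part of desmosomes, had 78, 28 and 73 counts at day 45 and 30, 73 and 56 at day 85. The ages overlapped, at 3.86 ± 1.59 and 3.63 ± 1.27 CPM (log2 fold change -0.09, SE 0.42, edgeR adjusted p = 0.908). Its sign turned without day 45 replicate 1 (0.07), day 45 replicate 3 (0.09) or day 85 replicate 1 (0.12). By FPKM, JUP was 36.5 ± 2.26 at day 45 and 51.8 ± 3.77 at day 85, and DSP 0.409 ± 0.180 and 0.368 ± 0.113, so the level of JUP was far above that of DSP at both ages. PKP2, the plakophilin of heart and simple epithelia, had 18, 7 and 12 counts and 16, 18 and 24 counts. Its CPM values did not overlap, with day 85 higher, and it was not called (log2 fold change 0.73, SE 0.37, edgeR adjusted p = 0.237). PKP1, of stratified epithelium, had 2, 4 and 16 counts and 2, 3 and 1 and was not tested. PKP3, also an epithelial plakophilin and named by ID only like CLDN7, had 74, 81 and 64 counts and 19, 45 and 42, with a log2 fold change of -1.0 (SE 0.32, edgeR adjusted p = 0.103).

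The binding partners of desmosomes and adherens junctions had 14 matched and 11 tested genes and a median log2 fold change of 0.13. Beside 3.9% of all genes that rose, 1 of the 11 was called, as a rise. This was CTNND1, p120 catenin, which steadies cadherins at the membrane, with 194, 200 and 195 CPM at day 45 against 274, 277 and 264 CPM by day 85 (log2 fold change 0.47, SE 0.10, edgeR adjusted p = 0.0462). JUP and CTNND1 are both catenins, and their fold changes differed by less than their standard errors. The intermediate filaments of non-epithelial cells were far more abundant than the keratins in CPM. VIM, vimentin of connective tissue cells, had 6836 CPM at day 45 and 4852 CPM at day 85 on average (log2 fold change -0.49, edgeR adjusted p = 0.135). DES, desmin of muscle, is itself in the muscle list and contributes to its sum. It had 345 CPM in day 85 replicate 2 against 4849 and 4414 CPM in the other day 85 libraries.

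Of the hemidesmosome genes and their laminins, which fasten keratin to the basement membrane, 9 were matched and 8 tested. In edgeR 2 rose and none fell, against 3.9% of all genes that rose and 2.66% that fell. ITGA6, an integrin chain shared by hemidesmosomes, endothelium and Schwann cells, rose from 11.3 to 26.1 CPM on average (log2 fold change 1.2, SE 0.20, edgeR adjusted p = 0.0273). CD151, its widely expressed tetraspanin partner, rose from 79.3 to 151 CPM (log2 fold change 0.93, SE 0.12, edgeR adjusted p = 0.0196). ITGB4, the other chain of the hemidesmosome integrin, had 23.4, 3.39 and 13.4 CPM at day 45 against 37.0, 226 and 31.1 CPM at day 85, highest in the library with the high Schwann cell sum (edgeR adjusted p = 0.138). COL17A1, the collagen specific to hemidesmosomes, had 10, 6 and 11 counts and 6, 11 and 8 counts and was not tested.

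**Figure D5:**
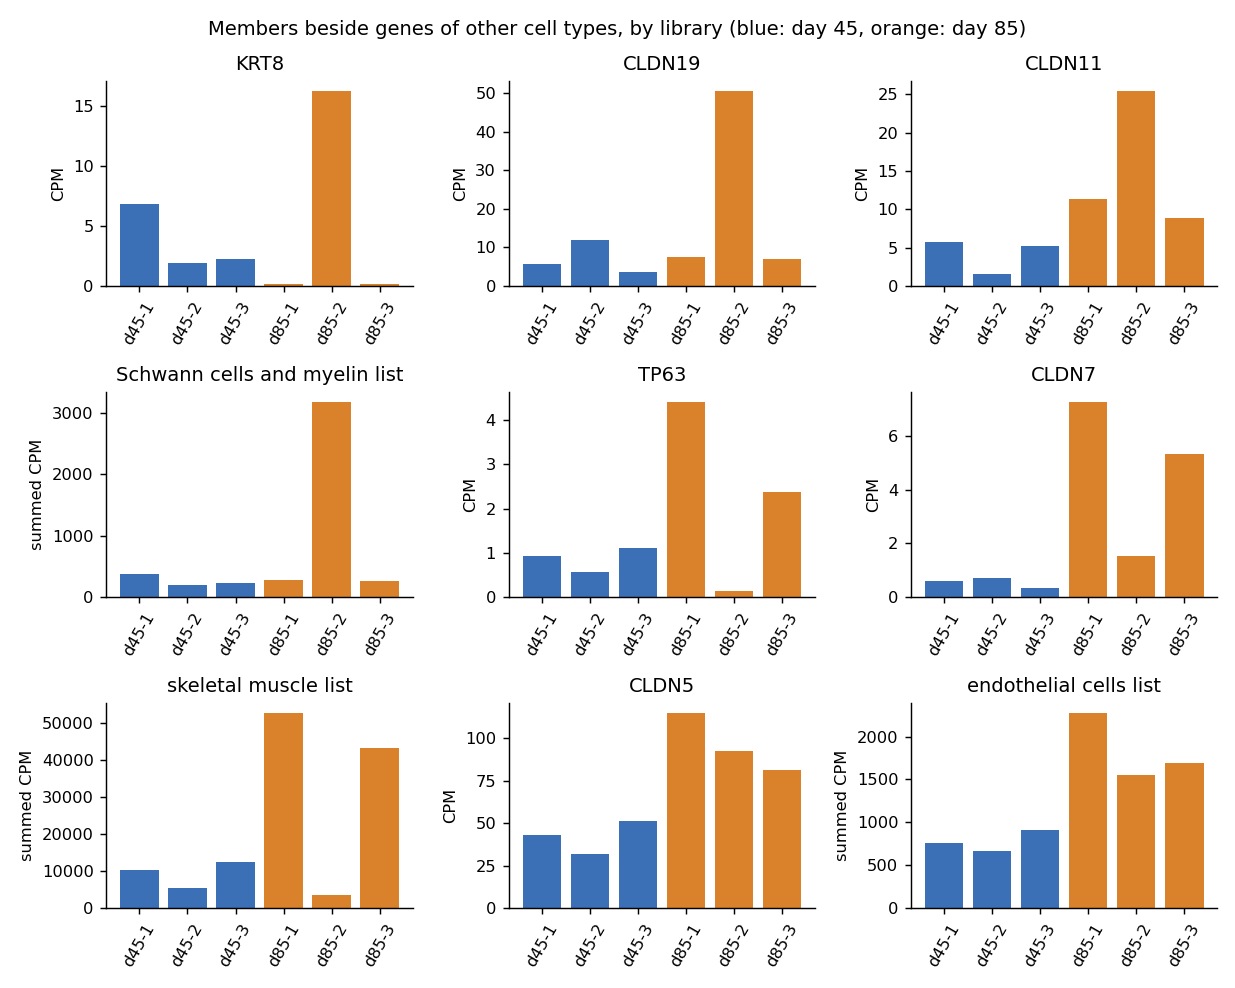
Levels of members beside summed levels of genes of other cell types, by library (blue for day 45, orange for day 85), in CPM or summed CPM with axes from 0. CLDN5 and the endothelial sum are higher in all day 85 libraries, CLDN19 and the Schwann cell sum peak in day 85 replicate 2, and the muscle sum is low there.

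The epithelial regulators did not pass the test in the 6 libraries. TP63, the transcription factor of the basal layer, which also has a form made in muscle, had 15, 8 and 17 counts at day 45 and 57, 2 and 36 at day 85. Day 85 replicate 2 was the lowest of all libraries and the other day 85 libraries were the highest. The log2 fold change was 1.38 (SE 0.95, edgeR adjusted p = 0.371) with it and 1.94 (SE 0.42, edgeR adjusted p = 0.0208) without it. Without day 85 replicate 1, the highest library, it was 0.51 (edgeR adjusted p = 0.785). TP63 was thus high where KRT5, KRT14 and KRT15, markers of the same basal layer, were at 9 counts or fewer. Of the muscle list 20 genes were tested and 1 rose (MYBPC2, edgeR adjusted p = 0.0428), beside 3.9% of all genes that rose. Its sum had the same order among the day 85 libraries as TP63, replicate 1 above 3 above 2. The part of muscle in the TP63 level was not tested.

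EPCAM, an adhesion protein of simple epithelia, had 48, 33 and 117 counts at day 45 and 6, 125 and 143 at day 85. Its day 85 values covered both the lowest and the highest of the 6 libraries, at 0.464, 8.33 and 9.43 CPM, and it was not called (log2 fold change 0.49, SE 0.95, edgeR adjusted p = 0.759). GRHL3, a transcription factor of the epidermal barrier, had 10, 14 and 13 counts and 16, 28 and 21 counts, without overlap in CPM and with day 85 higher (log2 fold change 0.86, SE 0.34, edgeR adjusted p = 0.149). GRHL2, the family member of simple epithelia, had 10, 3 and 6 counts and 2, 6 and 0, and GRHL1 had 1, 0 and 0 and 1, 6 and 3. Neither was tested.

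Ranked by mean FPKM among the 25 tested members, CLDN5 was first and JUP second at both ages, with no overlap of their libraries' spread with that of the next gene. KRT13 had rank 3 at day 45 with 8.21 ± 3.34 FPKM, level with CLDN12 at 8.2 ± 0.50 and KRT19 at 6.99 ± 4.97 within their spread, and rank 23 at day 85 with 0.218 ± 0.230 FPKM. KRT15 moved from rank 10 at day 45, with 3.00 ± 2.74 FPKM, to rank 25. DSC2 moved from rank 22 to rank 13. Rank 3 at day 85 was held by CLDN19 with 11.8 ± 13.1 FPKM, a mean that rests on day 85 replicate 2. CLDN10 followed at 7.52 ± 2.32 and CLDN1 at 7.11 ± 1.71, which did not differ beyond their spread.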

How the data were processed

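The authors deposited whole-number read counts and FPKM values of each gene and library in a single table, per the file headers. Per the labels' protocols, libraries were made from RNA of ground tissue without ribosomal RNA and kept the strand of the transcript. The submitters' processing notes name HISAT2. Neither the counting program and its use of strand nor the build and annotation are given in the sources used. The table names 16162 rows, and gene IDs gave symbols for 1774 more. No library was a duplicate of another of its age (chi-square per degree of freedom of 20.2 or more in every such pair). Pairs across the ages were not compared.

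The sample titles give each library's age, which set its group. The deposited counts were tested over all genes with edgeR 4.0.16 in R 4.3.3: filterByExpr with a minimum count of 10, TMM scaling, the robust quasi-likelihood F test of age, and Benjamini-Hochberg adjustment with a threshold of 0.05. Each SE was taken as the absolute log2 fold change over the square root of F. The test was tried on simulated data. Alternatives were other scalings (RLE, upper quartile, total count), tests without a filter or with 1 CPM required in 3 libraries, limma-voom, DESeq2 1.42.0 and limma 3.58.1 on log2 of the deposited FPKM with pseudocounts of 1 and 0.1, a replicate block, and leaving out each library.

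The members and the gene lists were chosen with earlier results of these data known. The rule for values per library took called members, the markers KRT13, KRT15 and CLDN7, the 4 most abundant tested members of each family, and the member with the largest fold change in each. From the other lists it took called genes or, with fewer than 2 called, the 2 most abundant. KRT14, KRT18, CLDN1, CLDN4, CLDN6, CLDN12, CLDN20, PKP3, the untested members, CDH1, ESRP1, RAB25, OCLN, CXADR, ILDR1, ITGB4 and COL17A1 were added after their values were seen. The rule also takes a few genes whose values are left out here.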

Additional observations from a re-analysis of the deposited data

How the results depend on the processing

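Scaling by RLE, upper quartile or total count, and tests without a filter or with 1 CPM required in 3 libraries, each called the same 5 members. DESeq2 called 3834 genes in place of 986, and among the members 5 as higher and 4 as lower. Limma-voom and limma on FPKM with a pseudocount of 1 each called 1 member lower in place of 2, without KRT15. With 1 library left out at a time, between 0 and 3412 genes, between 0 and 4 higher members and between 0 and 4 lower members were called, the most without day 85 replicate 2. In the fit with 0 genes called, without day 45 replicate 2, 3056 genes had an unadjusted p under 0.05.

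Directions that turned were all of genes without a call in the 6 libraries. The log2 fold change of KRT8, 0.60 as reported, was -1.76 with limma-voom, -0.34 and -1.41 on FPKM with pseudocounts of 1 and 0.1, and -4.31 to 1.39 with 1 library left out. That of KRT18 was -1.43 with limma-voom, -0.75 on FPKM with a pseudocount of 0.1, and -4.41 to 1.72 with 1 library left out. EPCAM was at -0.077 with limma-voom and -0.13 on FPKM with a pseudocount of 0.1. With 1 library left out, DSG2 ran from -0.90 to 0.022, DSP from -0.40 to 0.12 and KRT19 from -1.0 to 0.060. Apart from the libraries left out, the cause was not tested.

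The replicate numbers were not taken as pairs, since the deviations of same-numbered libraries correlated at 0.01, 0.25 and 0.04 and not every library correlated best with its own number. With a replicate block 682 genes were called, KRT8 was at -1.36 and KRT18 at -0.40. The block had 5 member calls, 4 of them shared with the fit without it. JUP had an adjusted p of 0.0671 there, KRT5 0.0426 and CLDN7 0.0666 (edgeR).

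Of the 68 members 43 were below the count filter, and the main edgeR fit gives no statement on a difference for these. Among them DESeq2, run without that filter, called KRT14 alone. For the others no statement on a difference is made at this depth. Levels under 1 CPM rest on fewer than 17 counts in any library.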

Other observations

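Lists of further cell types that a dissected condyle could hold were measured in the same fit, in which 3.9% of all genes rose and 2.66% fell. Of the macrophage genes 10 were matched, 9 tested and 4 rose in edgeR, with none falling. The scavenger receptor MSR1 rose from 2.40 to 9.84 CPM (log2 fold change 2.03, edgeR adjusted p = 0.0287). Rises of the complement subunits were 1.70 (C1QC), 1.62 (C1QB) and 1.31 (C1QA) on the log2 scale. The summed level of the macrophage list was 90.4 to 171 CPM at day 45 and 302 to 875 CPM at day 85. Of 9 matched genes of red cell and platelet precursors 7 were tested and 3 rose. SLC4A1, the anion exchanger of red cells, had 0.490, 0.289 and 2.09 CPM at day 45 against 23.0, 47.1 and 10.6 CPM at day 85 (log2 fold change 4.79, edgeR adjusted p = 0.0379). TAL1, a transcription factor of blood and endothelium, rose from 15.9 to 35.6 CPM (edgeR adjusted p = 0.0222). KLF1, the erythroid transcription factor, had 0, 0.0721 and 0 CPM at day 45 against 2.16, 8.13 and 1.19 CPM at day 85 (edgeR adjusted p = 0.0363). Both KLF1 and SLC4A1 needed their day 85 libraries to pass the count filter, so the count of 3 rises is a description.

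Of notochord genes 6 were matched and 3 tested, with no call in edgeR. CDH2 had a log2 fold change of 0.74 (edgeR adjusted p = 0.125) and CD24 one of -0.13 (0.696). Of 9 genes of mesothelial and synovial lining 5 were tested and 1 rose, CLIC5, an intracellular channel protein, from 1.53 to 7.12 CPM (log2 fold change 2.22, edgeR adjusted p = 0.0492). Of the chondrocyte genes that fell, HAPLN1, which links aggrecan to hyaluronan, had a log2 fold change of -2.79 (edgeR adjusted p = 0.0353), SOX9 one of -1.99 (0.0400) and COL11A1 one of -1.38 (0.0458).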
